A study of Homo sapiens with 4 samples.

Results

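The endosomal sorting genes examined here were the protein-coding genes whose symbols begin with VPS, SNX or CHMP followed by a digit. RefSeq lists 76 such genes, and 41 of them carried at least 1 listed YTHDF1 window in the authors' deposited table, with 126 windows among the 26819 listed for the whole series. The windows come from RNA immunoprecipitation sequencing (RIP-seq), in which RNA that comes down with an antibody against a protein is sequenced beside the input RNA of the lysate. All 4 libraries were made from SNU638, an established human gastric cancer cell line, in which YTHDF1 was overexpressed. YTHDF1 is a cytoplasmic reader of N6-methyladenosine (m6A), a methyl mark on adenosines of mRNA. All cells were kept without serum for 24 h and then given IFN-γ at 10 ng/ml for a further 24 h, so no group lacked IFN-γ or the overexpression. The groups were IP-YTHDF1 with 2 libraries and Input with 2 libraries, named as biological replicates in the labels. The methods describe an antibody to FLAG or IgG for the pulldown. The windows are thus those of the overexpressed protein in 1 cell line, and an IgG library was not analysed here.

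Each listed window is 50 bp of a gene with 1 score, 1 p-value and 1 q-value for IP-YTHDF1 over Input. The score is the signal value as deposited, and its scale is not stated. No value per library is given, so replicate spread and depth are unknown here, no test was run, and all differences below are descriptions of 1 table of calls. A gene without a listed window may have been unbound, little expressed or thinly covered, and these cannot be told apart. Of cell type markers, 4 of 7 epithelial genes had a listed window (EPCAM, KRT8, KRT18 and KRT19), against 31.8% of RefSeq protein-coding genes. None of the 9 lymphocyte, fibroblast and endothelial markers had one. A listed window is enrichment over Input and not expression, so these counts cannot settle the cell type. CDH1, CLDN4 and MUC1 were not listed.

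Endosomes sort internalized membrane proteins toward recycling or toward degradation. The retromer, a coat of VPS26, VPS29 and VPS35 subunits, and sorting nexins, which bind phosphoinositides through a PX domain, return cargo from endosomes to the Golgi apparatus or the plasma membrane. The ESCRT complexes do the opposite. ESCRT-I and ESCRT-II gather ubiquitinated cargo, the CHMP proteins of ESCRT-III polymerize to cut vesicles into the lumen, and the VPS4 ATPases take the polymer apart. Further VPS proteins tether membranes before fusion (HOPS, CORVET, GARP and EARP) or carry lipids between organelles (VPS13).

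The sorting genes carried listed windows more often than the average gene. Of the 76 genes 41 were listed (53.9%), against 31.8% of the 20052 RefSeq protein-coding genes. The families were alike in this respect, with 16 of 30 SNX genes (53.3%), 19 of 35 VPS genes (54.3%) and 6 of 11 CHMP genes (54.5%). Neighbouring trafficking families gave similar shares, with 36 of 74 RAB GTPase genes (48.6%) and 10 of 18 ATG autophagy genes (55.6%). The share over all genes includes genes that SNU638 cells may not express, and expression was not analysed here. In strength the sorting genes lay close to the rest. The strongest window of a gene had a median score of 2.29 over the 41 genes and 2.23 over the 6679 protein-coding genes with a window. Their scores ran from 0.81 to 2.99, far below the maximum of 6.76 among all protein-coding windows.

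**Figure D1:**
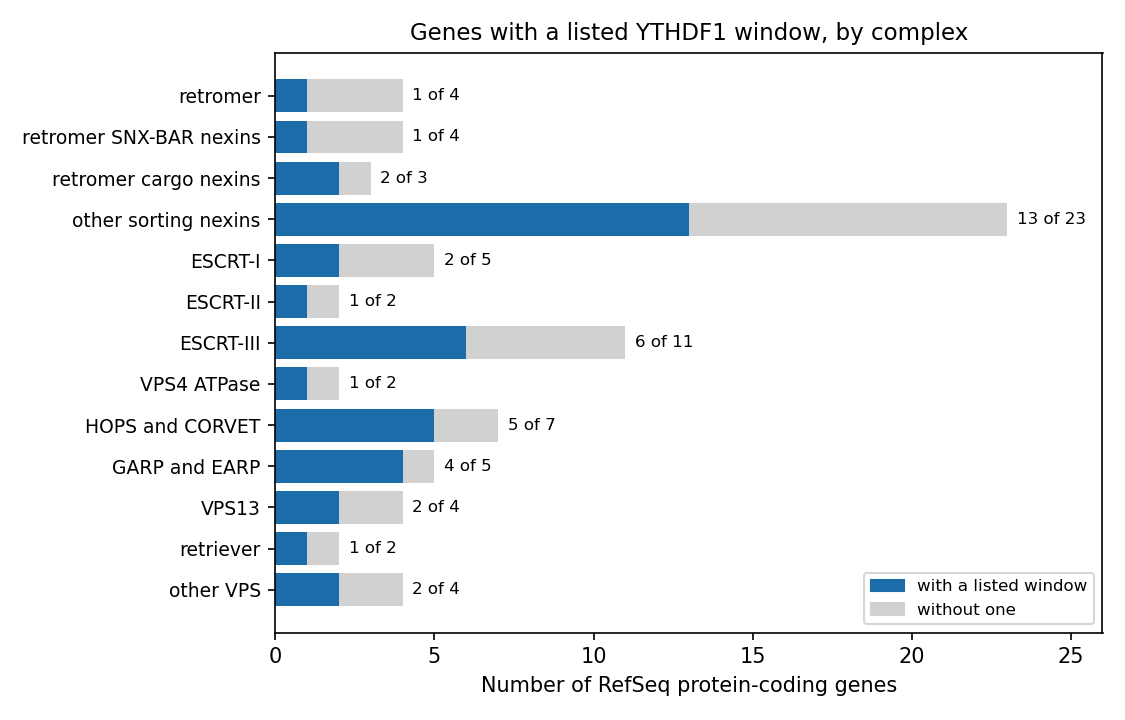
Number of RefSeq protein-coding genes with (blue) and without (grey) a listed YTHDF1 window, by complex. The retromer coat and its SNX-BAR nexins had 1 of 4 genes listed each, and the HOPS and CORVET tethers 5 of 7.

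The complexes differed in how many of their genes were listed. Retromer with its nexins was lowest, with 4 of 11 genes (36.4%) and 7 windows, a share close to the 31.8% of all genes. ESCRT had 10 of 20 genes (50%) and 33 windows, and the other sorting nexins had 13 of 23 genes (56.5%) and 50 windows. Of the remaining VPS-named genes 14 of 22 were listed (63.6%), with 36 windows. The median of the strongest score per gene was 2.075 for retromer and its nexins, 2.325 for ESCRT, 2.34 for the other sorting nexins and 2.265 for the remaining VPS-named genes. The ranges overlapped widely, from 1.93 to 2.38, from 1.28 to 2.87, from 1.69 to 2.99 and from 1.37 to 2.81. At a q-value of at most 0.001 the listed genes were 3 of 11 for retromer and its nexins, 6 of 20 for ESCRT and 11 of 23 for the other sorting nexins. The share of all RefSeq protein-coding genes at that limit was 21.2%. Without a test, and with 4 listed genes in the first class, neither the shares nor the medians are read as an order of the classes. Gene length moved in different directions in the classes. The RefSeq genes had a median length of 28248 bp when listed and 48250 bp when not listed, but the listed genes were the longer ones in ESCRT (22715.5 against 15148 bp) and among the other sorting nexins (99182 against 78037.5 bp). The part of length in the listing was not tested.

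**Figure D2:**
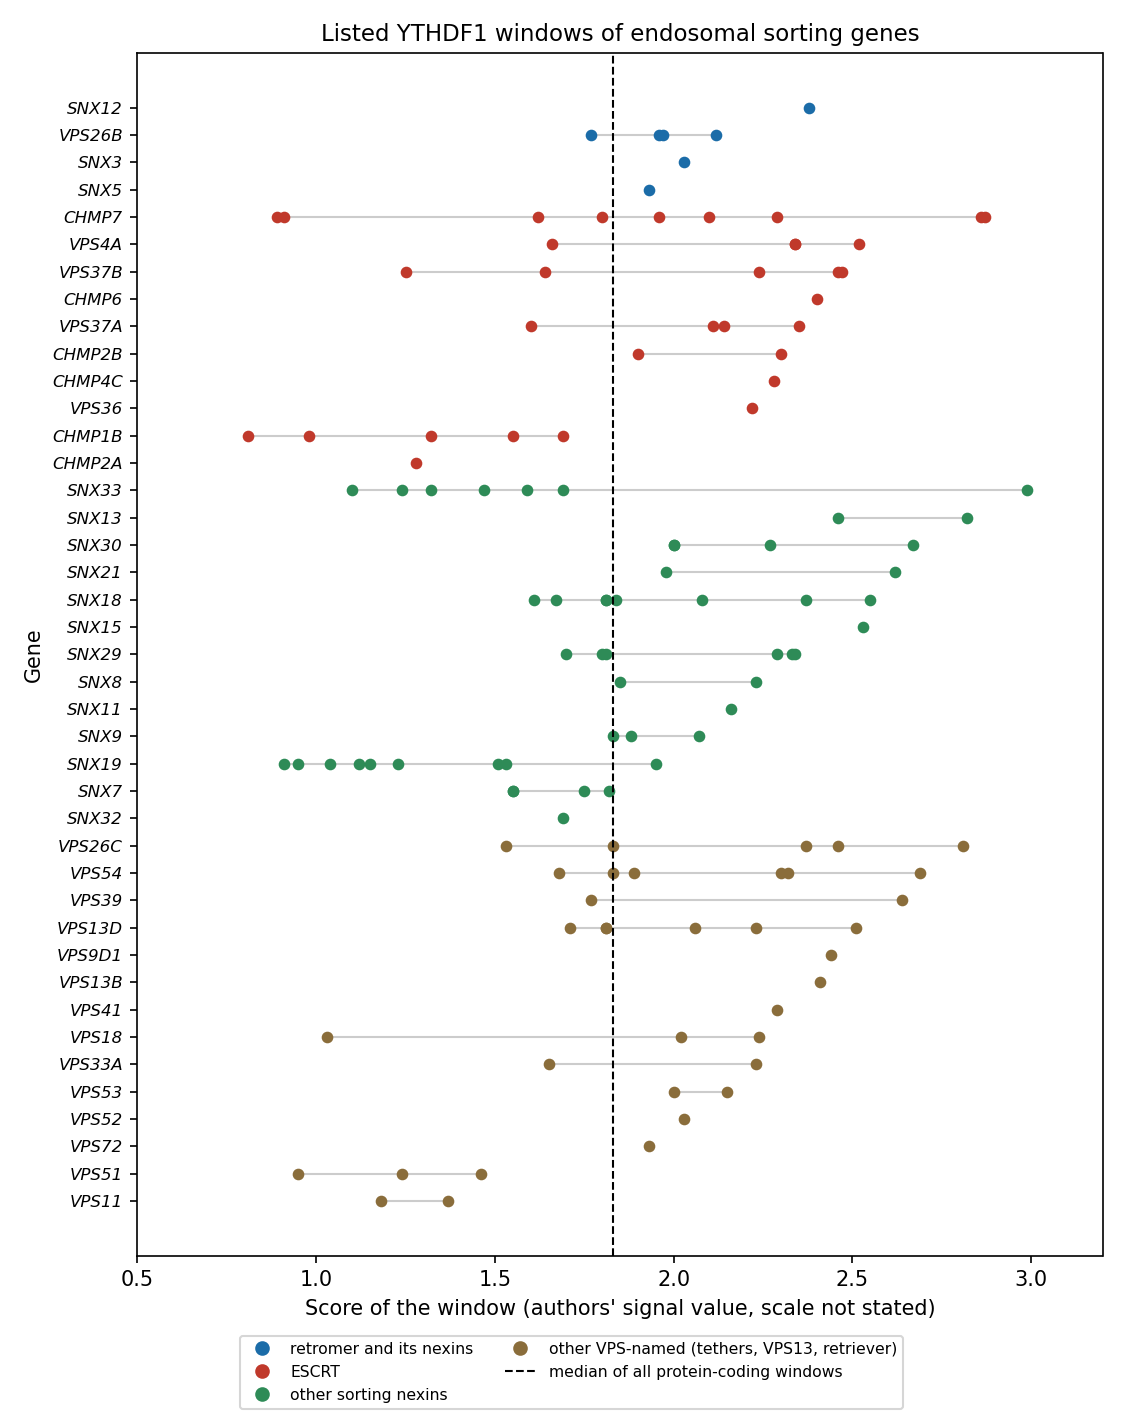
Score of every listed window (points) in each of the 41 genes, with a grey line from the weakest to the strongest window of a gene and colours for the classes. The dashed line is the median of all protein-coding windows, 1.83, and the 4 genes of the retromer class sit between 1.77 and 2.38.

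Within the retromer coat, VPS26B was listed, while VPS26A, VPS29 and VPS35 were not. VPS26A and VPS26B are paralogs that take the same place in the coat. VPS26B (ENSG00000151502, plus strand of chromosome 11) had 4 windows. The first 3 were adjacent, from 134225022 to 134225171, with scores of 1.96, 1.97 and 1.77. The other, from 134225222 to 134225271, was the strongest with a score of 2.12 and a q-value of 2.88e-08. All 4 lay in the first part of the gene, beginning 351 to 551 bp after the RefSeq start. The strongest exceeded 40.8% of the strongest windows of protein-coding genes.

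The SNX-BAR nexins SNX1, SNX2, SNX5 and SNX6 form curved dimers that shape the tubules in which retromer cargo leaves. Of these SNX5 alone was listed. Its single window (ENSG00000089006, minus strand of chromosome 20, 17968198 to 17968247) had a score of 1.93 and a q-value of 0.01445, and it was not among those with a q-value of at most 0.001. SNX32, which resembles SNX6, belongs to the other sorting nexins here and is described with them. Of the nexins that choose retromer cargo, SNX3 and SNX12 were listed and SNX27 was not. SNX3 had 1 window (ENSG00000112335, minus strand of chromosome 6, 108260873 to 108260922) with a score of 2.03 and a q-value of 0.000712, beginning 118 bp after the RefSeq start. SNX12, a close relative of SNX3, had 1 window (ENSG00000147164, minus strand of chromosome X, 71068233 to 71068282) with a score of 2.38 and a q-value of 4.55e-07. Retriever is a related coat in which VPS26C and VPS35L stand in for the retromer subunits. VPS35L was not listed, and VPS26C was, as described below.

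The other sorting nexins held the strongest listed window of all 41 genes. SNX33 (ENSG00000173548, plus strand of chromosome 15) is an endocytic nexin with an SH3 domain, a PX domain and a BAR domain. Its window from 75648057 to 75648106 had a score of 2.99 and a q-value of 1.97e-05, and exceeded 91.4% of the strongest windows of protein-coding genes. Its other 6 windows were far weaker, with scores from 1.10 to 1.69, and none of the 7 touched another. One lay upstream of it, from 75647957 to 75648006 with 1.69, and 3 lay downstream, at 75648857 to 75648906 with 1.47, at 75649507 to 75649556 with 1.24 and at 75650157 to 75650206 with 1.59. The last 2 were at 75657057 to 75657106 with 1.32 and at 75657757 to 75657806 with 1.10. SNX9 and SNX18, which share this domain order, were also listed. SNX18 had 8 windows in 4 blocks, 3 windows from 54517810 to 54517959 and 5 between 54518710 and 54519209 on chromosome 5, with scores from 1.61 to 2.55. SNX9 had 3 windows with scores from 1.83 to 2.07, so its strongest lay below those of SNX18 and SNX33.

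SNX13, a nexin of contacts between the endoplasmic reticulum and other organelles, came after SNX33 and CHMP7 in strongest listed score. It held 2 adjacent windows (ENSG00000071189, minus strand of chromosome 7, 17940362 to 17940461) with scores of 2.46 and 2.82, the second with a q-value of 7.15e-09. Its relative SNX19 showed the reverse picture in the listed windows, with 9 of them and a strongest listed score of 1.95. These ran from 130914337 to 130915086 on chromosome 11 with scores from 0.91 to 1.95, and 1 of them, at 130914637 to 130914686, had a q-value of 3.7e-09. SNX30, SNX7 and SNX4 are BAR nexins that act together in recycling and autophagy. SNX30 had 4 windows with scores from 2.00 to 2.67, SNX7 had 4 with scores from 1.55 to 1.82, and SNX4 was not listed. In SNX7 (ENSG00000162627, plus strand of chromosome 1) 3 windows were adjacent, from 98661702 to 98661851, with scores of 1.55, 1.75 and 1.55, and the strongest lay far downstream, from 98685002 to 98685051. At SNX7 the 2 weakest windows had a q-value of 0.04227, close to the limit of 0.05.

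Of the remaining nexins, SNX29 had 6 windows and a strongest score of 2.34, spread over 526850 bp of its locus. SNX21 (2 windows) reached 2.62, SNX15 (1 window) 2.53, SNX8 (2 windows) 2.23 and SNX11 (1 window) 2.16. SNX32 had a single window with a score of 1.69 at 65855985 to 65856034 on chromosome 11, which lay beyond the RefSeq end of the gene, the only such window among the 126. No window was listed for SNX10, SNX14, SNX16, SNX17, SNX20, SNX22, SNX24, SNX25 and SNX31, besides SNX4.

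Of the ESCRT genes with VPS or CHMP names, some had listed windows and some had none in each of ESCRT-I, ESCRT-II, ESCRT-III and VPS4. Of the ESCRT-I genes VPS37A and VPS37B were listed, while VPS28, VPS37C and VPS37D were not. The VPS37 proteins are alternative subunits of ESCRT-I. VPS37B (ENSG00000139722, minus strand of chromosome 12) had the smallest q-values of all sorting genes, listed as 0 for 2 adjacent windows from 122895981 to 122896080 with scores of 2.47 and 2.46. The window next to them, from 122896081 to 122896130, had a score of 2.24. The other 2 windows lay about 25 kb downstream, beginning 25094 and 25144 bp after the RefSeq start, with scores of 1.64 and 1.25. VPS37A (ENSG00000155975, plus strand of chromosome 8) had 4 adjacent windows from 17247132 to 17247331 with scores of 1.60, 2.35, 2.14 and 2.11.

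Of the ESCRT-II genes, VPS36, the ubiquitin-binding subunit, had 1 window (ENSG00000136100, minus strand of chromosome 13, 52450553 to 52450602) with a score of 2.22 and a q-value of 0.008787. VPS25 was not listed. ESCRT-III ranged most widely. CHMP7 (ENSG00000147457, plus strand of chromosome 8), which recruits ESCRT-III to the nuclear envelope, had 9 windows within 500 bp. Its 2 strongest were neighbours, from 23246488 to 23246587, with scores of 2.86 and 2.87 and q-values of 5.02e-08 and 1.04e-08. Its 2 weakest, from 23246688 to 23246787, had 0.89 and 0.91, so scores changed about as much within this gene as over the whole group. Upstream of the peak, 4 adjacent windows from 23246288 to 23246487 had 1.62, 1.96, 2.10 and 1.80, and between the strongest and the weakest lay a window from 23246638 to 23246687 with 2.29.

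CHMP6, which links ESCRT-II to ESCRT-III, had 1 window with a score of 2.40. CHMP4C, which acts in the abscission checkpoint, had 1 with 2.28. CHMP2B, a gene mutated in frontotemporal dementia, had 2 windows (ENSG00000083937, plus strand of chromosome 3) at 87227372 to 87227421 and 87227472 to 87227521 with scores of 2.30 and 1.90. Its relative CHMP2A had the weakest strongest window of all 41 genes (ENSG00000130724, minus strand of chromosome 19, 58554117 to 58554166), with a score of 1.28 and a q-value of 0.01193. CHMP1B (ENSG00000255112, plus strand of chromosome 18) had 5 windows with low scores. They were 1.32 at 11851514 to 11851563, 0.98 at 11851664 to 11851713, 1.55 at 11851764 to 11851813, 1.69 at 11851814 to 11851863 and 0.81 at 11851914 to 11851963. CHMP1A, CHMP3, CHMP4A, CHMP4B and CHMP5 were not listed. Of the ATPases, VPS4A had 4 windows with scores of 2.34, 2.52, 2.34 and 1.66, and VPS4B had none.

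Windows shared with another gene touched mainly ESCRT. In 4 genes, 12 of the 126 windows coincided with windows that the table also lists for a different gene of that strand, and such reads cannot be assigned to 1 gene. All 5 windows of CHMP1B overlapped windows of GNAL, in whose locus it lies, and 1 of them also overlapped a window of the antisense gene CHMP1B-AS1 on the other strand (score 2.21). All 4 windows of VPS4A overlapped windows of AC026464.4, which had scores up to 2.72. Of VPS37B 2 windows overlapped AC027290.2, and of VPS33A 1 overlapped AC048338.1. Without these windows 39 genes remained, 8 of them in ESCRT, and the share over all RefSeq genes was 30.1%. Adjustment over the 310017 windows counted in genes with a listed window kept all 41, against 31.3% of RefSeq genes. Windows of genes without a listed one could not be counted, so this limit is too lenient.

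By share of genes the tethering complexes were listed most completely at the q-value limit of 0.05. HOPS and CORVET had 71.4% and GARP and EARP 80%, against 31.8% of RefSeq protein-coding genes. At a limit of 0.001, VPS11, VPS18, VPS52 and VPS53 dropped out, and 21.2% of RefSeq protein-coding genes were listed. This left VPS33A, VPS39 and VPS41 of the 7 HOPS and CORVET genes and VPS51 and VPS54 of the 5 GARP and EARP genes. With so few genes, these shares are not read as an order of the complexes. HOPS and CORVET, which tether late and early endosomes, share the core subunits VPS11, VPS16, VPS18 and VPS33A. Of their genes VPS11, VPS18, VPS33A, VPS39 and VPS41 were listed (5 of 7), and VPS8 and VPS16 were not. VPS39, a HOPS subunit, reached 2.64 in its window at 42208102 to 42208151 on chromosome 15, with a q-value of 2.57e-07. VPS41, the other subunit particular to HOPS, had 1 window with 2.29, VPS18 had 3 with up to 2.24 and VPS33A 2 with up to 2.23. VPS11 (ENSG00000160695, plus strand of chromosome 11) was among the weakest, with scores of 1.37 at 119071743 to 119071792 and 1.18 at 119077543 to 119077592 and a q-value of 0.0123 for both.

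GARP tethers vesicles from endosomes at the Golgi apparatus, and in EARP the subunit VPS50 takes the place of VPS54. VPS51, VPS52, VPS53 and VPS54 were listed (4 of 5), and VPS50 was not. VPS54 (ENSG00000143952, minus strand of chromosome 2) had 6 windows in 3 blocks. The strongest, from 64019347 to 64019396, had a score of 2.69 and a q-value of 1.26e-08, and the other 5 had scores from 1.68 to 2.32. Of these, 3 were adjacent from 63981697 to 63981846 (1.68, 2.32 and 1.83) and 2 from 63983897 to 63983996 (2.30 and 1.89). VPS51, a subunit that both complexes share, was near the low end. Its 3 windows (ENSG00000149823, plus strand of chromosome 11) had 0.95 at 65096375 to 65096424, 1.24 at 65108575 to 65108624 and 1.46 at 65110525 to 65110574. VPS53 and VPS52 had strongest scores of 2.15 and 2.03.

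VPS26C, the retriever subunit (ENSG00000157538, minus strand of chromosome 21), had 5 windows. Its window from 37267871 to 37267920 had a score of 2.81 and a q-value of 7.93e-11. Another 3 were adjacent, from 37267271 to 37267420, with scores of 2.37, 2.46 and 1.83, and the last lay near the other end of the gene, from 37225071 to 37225120, with 1.53. Of the VPS13 lipid transfer genes, VPS13D had 6 windows with scores from 1.71 to 2.51, VPS13B had 1 with 2.41, and VPS13A and VPS13C had none. VPS9D1 had 1 window with 2.44. VPS72 had 1 with 1.93, and encodes a chromatin remodelling subunit that has the VPS name without an endosomal role. VPS33B and VPS45 were not listed.

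The 41 genes differed in how many windows they held, from 1 in 15 genes (36.6%, against 29.0% of listed protein-coding genes) to 9 in CHMP7 and SNX19. The number of windows tested in a gene was computed from the q-values divided by the p-values, since q-values were adjusted within each gene. It had a median of 35 in the 41 genes and of 35 over all listed protein-coding genes. In genes with 9 listed windows it may be too low, and without them the medians were 29 and 32. CHMP2B had 2 of only 3 tested windows listed, SNX7 had 4 of 9 and VPS37A 4 of 11, the highest shares among the sorting genes. CHMP6 was at the other end with 1 of 74. Per 100 tested windows, the median was 12.6 in ESCRT, 7.89 in the other sorting nexins, 5.77 in retromer and its nexins and 4.72 in the remaining VPS-named genes. Over all 41 genes it was 7.14, below the 8.93 of all listed protein-coding genes. The median number of tested windows was 19.5 in ESCRT and 22.5 in retromer and its nexins. The part of this number in the listed share was not tested.

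No gene in the table had more than 9 windows. This number was reached by 2 of the 41 sorting genes and 854 of the 6679 protein-coding genes with a window, whose lists may be cut. In CHMP7 the weakest listed q-value corresponds to place 14 or later among the p-values of at least 48 tested windows. In SNX19 it corresponds to place 23 or later of at least 98. At least 14 and 23 windows therefore passed in these genes, of which 9 each are listed. Their counts, their numbers of tested windows and their strongest scores are thus lower bounds. The other 39 genes showed no such skipped places.

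**Figure D3:**
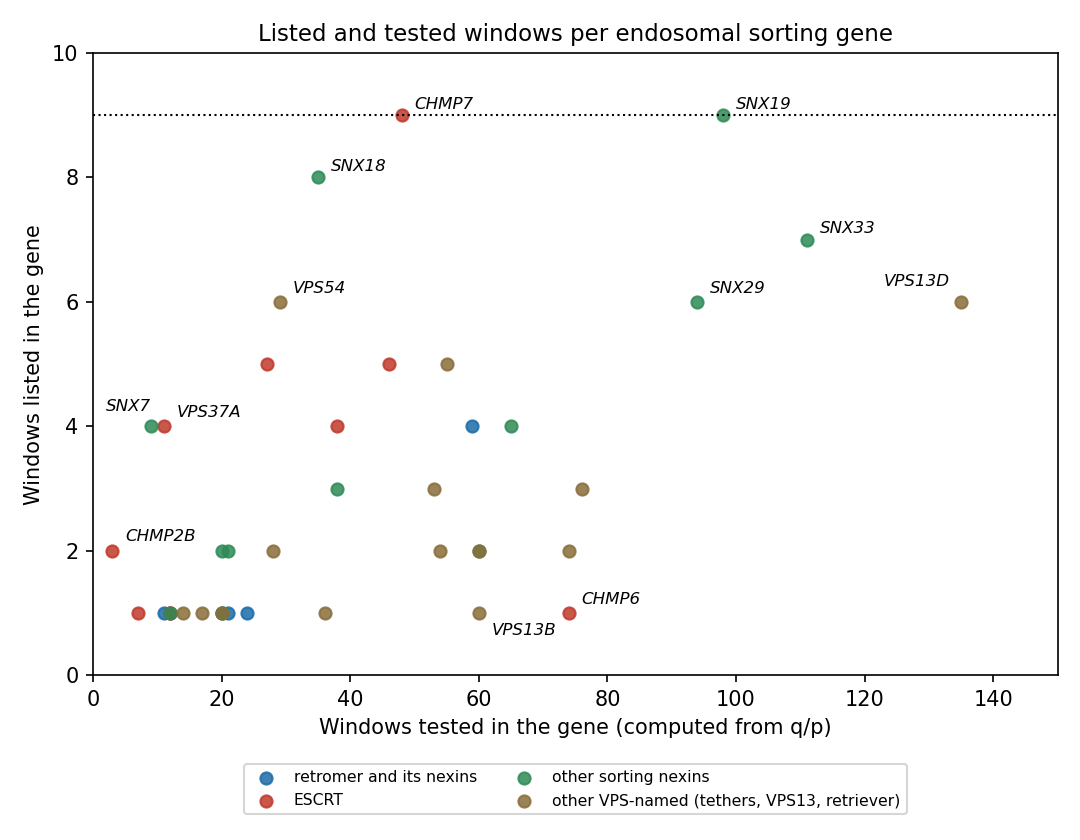
Listed windows (vertical axis) against tested windows computed from q-value over p-value (horizontal axis) for each of the 41 genes, coloured by class. CHMP7 and SNX19 lie on the dotted line at 9 windows, and CHMP2B (2 of 3) and CHMP6 (1 of 74) are the extremes of the listed share.

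The share of windows near the gene start was a few percentage points higher in the sorting genes than over all protein-coding genes. It is not read as a trait of the sorting genes. A window was counted as near the start when its centre was within 500 bp of the outermost RefSeq start, in genomic distance. This held for 38 of 125 windows (30.4%, Wilson 95% interval 23.0% to 38.9%), against 24.3% of 23110 windows of all protein-coding genes, a value inside that interval. The interval takes windows of 1 gene as unrelated and is therefore too narrow. In genes at 9 windows, unlisted windows may lie elsewhere in the gene. Without these genes the shares were 35.5% and 26.9%. With all genes kept, the share was 30.3% of windows in the ATG autophagy genes and 20% in the RAB GTPase genes. Counted per gene, 20 of 40 sorting genes (50%) and 43.4% of all protein-coding genes had such a window. For the ATG and RAB genes it was 70% and 36.1%. Within 500 bp of the RefSeq end lay 1 of the 125 windows, against 1.99% of all. Which windows lie in exons, introns or untranslated parts was not analysed here, because no exon annotation was used.

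The classes differed in position. In ESCRT 16 of 33 windows (48.5%) were near the start, and 10 of 22 (45.5%) without the windows shared with other genes. Retromer and its nexins had 4 of 7 (57.1%), 3 of them in VPS26B. The other sorting nexins had 13 of 49 (26.5%) and the remaining VPS-named genes 5 of 36 (13.9%). Of the 16 ESCRT windows, 7 belonged to VPS37A and VPS37B and 4 to CHMP1B, so a few genes set this share. In CHMP7 none of the 9 windows was near the RefSeq start, which they followed by 2651 to 3101 bp.

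Windows near the start had higher scores, in the sorting genes as in the table as a whole. Their median score was 2.05 in the sorting genes, against 1.85 for the other 87 windows, and 1.99 against 1.79 over all protein-coding genes. Retromer and its nexins went the other way, with 1.965 for the 4 windows near the start and 2.12 for the other 3. Of the 5 genes with the highest listed scores, SNX33, SNX13, VPS26C and VPS54 had their strongest listed window there, and CHMP7 did not. Those of the first 4 began 145, 33, 188 and 32 bp after the RefSeq start. The strongest window was near the start in 14 of 40 sorting genes (35%) and in 30.8% of protein-coding genes.

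**Figure D4:**
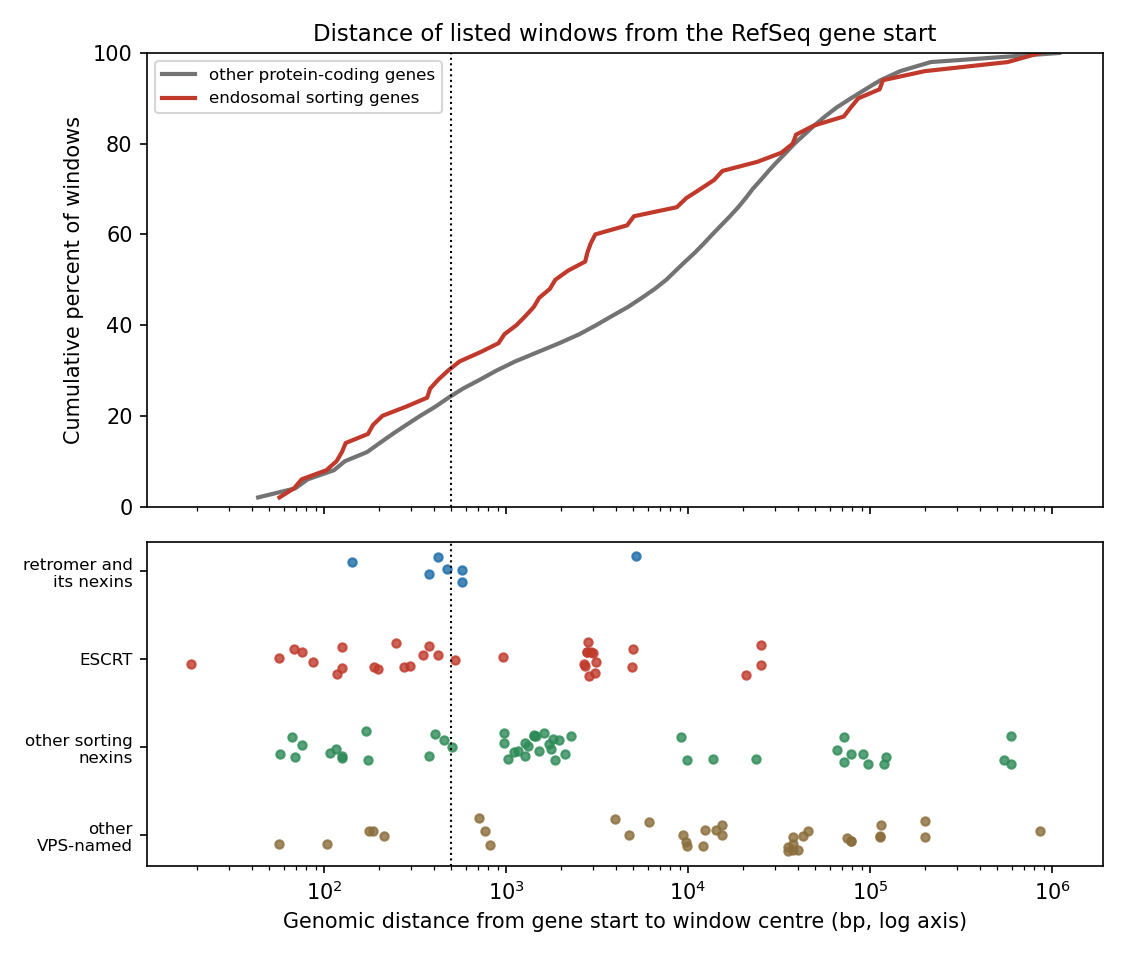
Upper panel, cumulative percent of listed windows against genomic distance from the RefSeq gene start to the window centre (log axis) for sorting genes (red) and other protein-coding genes (grey). Lower panel, each window of the 4 classes, shifted vertically at random within its class, with the dotted line at 500 bp, and 38 of 125 windows lie on its near side.

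The sequence of 5 windows could be read, since they lay entirely inside promoter records of RefSeq (GRCh38.p14), which cover 250 bases before and 50 bases after each annotated start. They are shown because they are the windows of the sorting genes whose letters could be read here. m6A is placed in the motif DRACH, where D is A, G or T, R is A or G and H is A, C or T, and the motif was searched on the transcribed strand over all 50 bases of each window. The first 30 bases of each window, or 30 bases around the motif where it was found, are printed 5′ to 3′ with the motif in capitals.
VPS37B, chr12:122896101-122896130, minus strand: ggcggcgcttccggtcggcggagcctggtg
VPS26C, chr21:37267341-37267370, minus strand: acgaagcggggaggcgccccttgtttccct
VPS26C, chr21:37267391-37267420, minus strand: gaggtcacgtgagccactgccggcagagag
SNX7, chr1:98661702-98661731, plus strand: gtggcggccggctgggcgcgcactctcggg
SNX33, chr15:75648876-75648905, plus strand: gcatatgcccggAGACCtgatagggcagtt

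The SNX33 window, with a score of 1.47, held 1 DRACH match, AGACC, beginning at base 32 of the window. The other 4 windows held none, although their scores ran up to 2.46 in VPS26C. DRACH was found in 159 of 410 protein-coding windows that lay inside a promoter record of their own gene (38.8%), and GGACT in 25 of them (6.10%) and in 0 of the 5. The windows were rich in G and C, with 58% to 82% in the 5 and a median of 72% in the 410. The VPS37B window began 6 bases before its RefSeq start, and the SNX7 window 19 bases before an annotated start downstream of the outermost one. A match is no evidence of methylation, which was not measured, and 5 windows are too few to compare with the 410.

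Partners of the sorting genes that carry other names were taken from a list of 39 pathway genes, of which 21 were listed (53.8%, against 31.8% of all RefSeq protein-coding genes). ESCRT partners had the highest share, with 10 of 12 (83.3%) and a median strongest score of 2.42, close to the 2.43 of all 21. STAM2, which with HGS and STAM forms the cargo-binding ESCRT-0 step, had a strongest score of 3.27, above every listed window of the VPS, SNX and CHMP families. HGS and IST1 had 9 windows each, and UBAP1 and MVB12A were not listed. TSG101, the ESCRT-I core subunit, and SNF8, of ESCRT-II, had 1 window each with scores of 2.67 and 2.40, so ESCRT-I and ESCRT-II were represented beyond the VPS-named subunits. In the commander assembly around retriever 3 of 12 genes were listed (CCDC93, COMMD1 and COMMD5). This share of 25% lay below that of all genes, although the median strongest score of the 3 was 2.58. In the WASH complex, which polymerizes actin on retromer domains, it was 3 of 6, among them WASHC2A and WASHC2C, near-identical copies whose reads may be split uncertainly. Of the cargo receptors and regulators 4 of 7 had a window, led by the retromer regulator TBC1D5 with 9 windows and a strongest score of 2.96, and the receptors IGF2R and M6PR had 1.99 and 2.07. PIK3R4, of the class III PI3-kinase that makes the lipid bound by PX domains, had 7 windows, and PIK3C3 had none.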

How the data were processed

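RIP-seq had been done in 4 libraries (2 IP-YTHDF1, 2 Input). The submitters' processing notes name STAR 2.7.3a and GRCh38; the peak caller is not given in the sources used here, and the RNA libraries were strand-specific per the labels. The authors deposited 1 table of 26820 rows (1 repeated row was dropped) giving for every window a score (signal value and rank), a p-value and a q-value. The q-values were computed by the authors and are at most 0.05. There were 0 columns of values per library, so no test was run. Positions are counted from 1. Of 6674 protein-coding symbols, 6368 matched RefSeq (GRCh38.p14) by symbol or unambiguous synonym. Tested windows were taken as the largest product of order and q/p in a gene, using p-values above 1e-14, and this step was tested on simulated data. In genes whose list is cut, the result is a lower bound. Shares without library depth carry Wilson 95% intervals only for windows near gene starts; these cover counting error only. The members, classes and lists were chosen with earlier results of these data known. Windows are given in full for the retromer coat and its SNX-BAR nexins, the 5 genes with the largest and the 5 with the smallest strongest score and the 3 with the highest listed share, and other genes are named by windows and strongest score. Alternatives were a q-value of 0.001, a score of 2, adjustment over the windows counted in all listed genes, and joined windows. Shared windows or genes at 9 windows were also left out. The values were computed in Python 3.11.15 with NumPy 2.4.6 and pandas 2.3.3, intervals with SciPy 1.17.1, and plots drawn with matplotlib 3.10.9.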

Additional observations from a re-analysis of the deposited data

Results flagged for a closer look

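Some windows lay in loci related to the VPS, SNX and CHMP genes but were not counted among theirs. CHMP1B-AS1, a long non-coding RNA antisense to CHMP1B, had 1 window with a score of 2.21. SNX19P3, a processed pseudogene of SNX19, had 2 windows with a score of 1.00 each, and the handling of reads that match both copies is not stated. RNF103-CHMP3, a read-through gene, had 4 windows with a strongest score of 2.00, and 0 of them lay in the RefSeq interval of CHMP3, which had no listed window.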

How the results depend on the processing

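No paired analysis was possible because each window has a single value in which the replicates are not told apart, and no library could be left out. No genome was given, so the planned DRACH share over all windows was not run, and the share in promoter records was added after the data were seen. Of 40 alternative values, 31 stayed within the tolerance set for their kind (within 1.5 times for a count, 1 SD between genes for a median, the Wilson interval for the share near the start) and 9 did not. Joining touching windows, within that tolerance, left 86 of 126. Some of the 31 values could not move. Retromer and its nexins had no shared window and no gene at 9 windows, and the other sorting nexins had no shared window. A Bonferroni limit over the 310017 windows counted in genes with a listed window left 15 of the 41 genes (12.5% of RefSeq genes). Of these 2 were in retromer and its nexins, 4 in ESCRT and 4 in the other sorting nexins. Of the HOPS, CORVET, GARP and EARP tethers VPS39 and VPS54 remained. A q-value of at most 0.001 left 29 genes (21.2% of RefSeq genes), 58 windows and 6 ESCRT genes, and a score of at least 2 left 32 genes (22.0% of RefSeq genes) and 57 windows. These follow from the stricter limits. The share near the gene start was 20.0% within 200 bp (13.9% over all protein-coding windows) and 50% counted per gene, both chosen after the data were seen. Without genes at 9 windows it was 35.5%, against 26.9%.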
